A study of Mus musculus with 10 samples.

Results

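The cytochrome P450 genes outside family 2 were examined in mouse liver after VEGF gene transfer. A gene was included if its symbol was Cyp followed by a family number other than 2, a subfamily letter and a gene number, which gave 52 of the 24016 transcripts in the deposited table; a further 50 transcripts belonged to family 2. The mice were young adult C57BL/6 males. In the AdVEGF group (n = 5), an adenovirus carrying VEGF-A165 behind the CMV promoter was injected into the tail vein, and in the AdCMV group (n = 5) the virus carried the promoter without a transgene. The CMV promoter is not restricted to a cell type, both groups received virus, and no uninjected mice were sequenced. Livers were perfused with PBS and harvested on day 6, and total RNA depleted of ribosomal RNA was sequenced from each mouse, so that each value below belongs to 1 animal and to all cell types of its liver together.

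Cytochrome P450 enzymes are haem proteins that insert oxygen into their substrates with electrons from P450 oxidoreductase in the endoplasmic reticulum or from ferredoxin in mitochondria. In the liver, families 1 and 3 oxidise drugs, foreign compounds and steroids, family 4 hydroxylates the end of fatty acid chains, families 7, 8, 27 and 39 convert cholesterol and oxysterols to bile acids, and family 26 degrades retinoic acid. Families 11, 17, 19 and 21 make steroid hormones in the adrenal gland and gonads. Many hepatic P450 genes are transcribed most strongly in hepatocytes near the central vein, and several mouse Cyp3a and Cyp4a genes differ between males and females.

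Expression was deposited as RPKM, the read number corrected for transcript length and library size. Mapped tags, estimated from the steps of the RPKM values, were 5758951 to 13493931 in the AdCMV group and 5596567 to 8133963 in the AdVEGF group. RPKM is a share of each library. Of the reads counted on transcripts, the major urinary protein (Mup) genes took 18.0% to 50.5% in AdCMV mice and 7.84% to 28.6% in AdVEGF mice. In each library these reads outnumbered the mapped tags, from 10744078 against 9429227 in AdCMV mouse 4 to 5725771 against 5596567 in AdVEGF mouse 3. Some reads may thus have been counted on more than 1 transcript, and the part of this in the Mup shares was not tested. Across the 13933 genes tested, the median log2 fold change was 0.38, and it was 0.0015 after median-ratio scaling, which sets the level of the typical gene equal between libraries. Results are therefore given on the deposited values and, for P450 genes whose call the scaling changed, also after median-ratio scaling. A gene was called higher or lower at a limma adjusted p under 0.05 with a log2 fold change over 1 or under -1 on log2(RPKM + 0.1), a scale that understates the change of weakly expressed genes. AdVEGF mouse 4 stood apart from its group for many of the P450 genes, and P450 calls that changed when it was left out are given without it. In whole tissue, fewer cells of a type and less RNA per cell cannot be told apart.

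Of the 52 genes, 36 averaged more than 0.5 RPKM in either group and were tested, and 16 stayed below. Among the 36, 3 were called higher, where 13% of all genes tested were, and 6 were called lower, where 1.54% of all genes were. The lower genes were the omega-hydroxylase genes Cyp4a12a, Cyp4a12b and Cyp4a10, the sterol 12-alpha-hydroxylase gene Cyp8b1, the fatty acid hydroxylase gene Cyp4v3 and the drug-metabolising Cyp3a44. The higher genes were Cyp4b1, its pseudogene Cyp4b1-ps2 and Cyp4f16. After median-ratio scaling, 2 were called higher (7.81% of all genes) and 14 lower (3.09% of all genes), and the 14 contained all 6 of the former. With upper quartile scaling 2 were called higher (8.07% of all genes) and 11 lower (2.82% of all genes). Median log2 fold changes over the 36 genes were -0.69 on the deposited values and -1.07 after scaling. Every AdVEGF value lay below every AdCMV value for 5 genes (1.29% of all genes tested) and above for Cyp4b1 alone (14.3% of all genes tested).

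**Figure D1:**
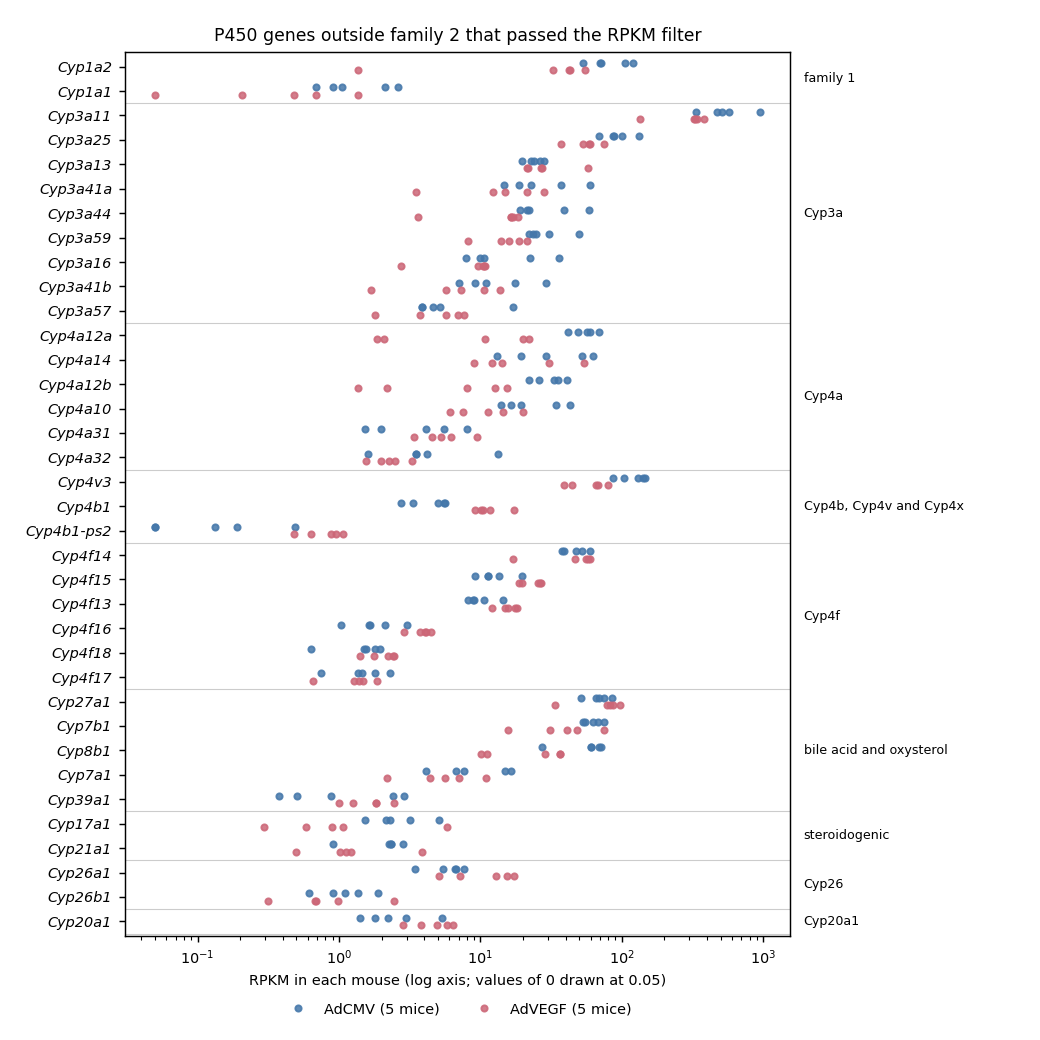
RPKM of the 36 tested P450 genes in each mouse on a log axis, grouped by subfamily or role, with 1 point per mouse and values of 0 drawn at 0.05. Cyp3a11 lies furthest to the right in both groups, the AdVEGF points of Cyp4a12a and Cyp4a12b lie left of all AdCMV points, those of Cyp4b1 lie right of all AdCMV points, and a single AdVEGF point of Cyp1a2 lies at 1.37.

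Summed over the 52 genes, the level was 1353, 1365, 2063, 1038 and 1565 RPKM in AdCMV mice 1 to 5 and 1059.7, 952, 932, 551 and 965 RPKM in AdVEGF mice 1 to 5. The groups overlapped only through AdCMV mouse 4 and AdVEGF mouse 1. After median-ratio scaling the sums ran from 1568 to 1731 in AdCMV mice and from 462 to 975 in AdVEGF mice, without overlap. Cyp3a11 was the largest single contributor, with 37.4% of the sum on average in AdCMV mice and 32.9% in AdVEGF mice.

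**Figure D2:**
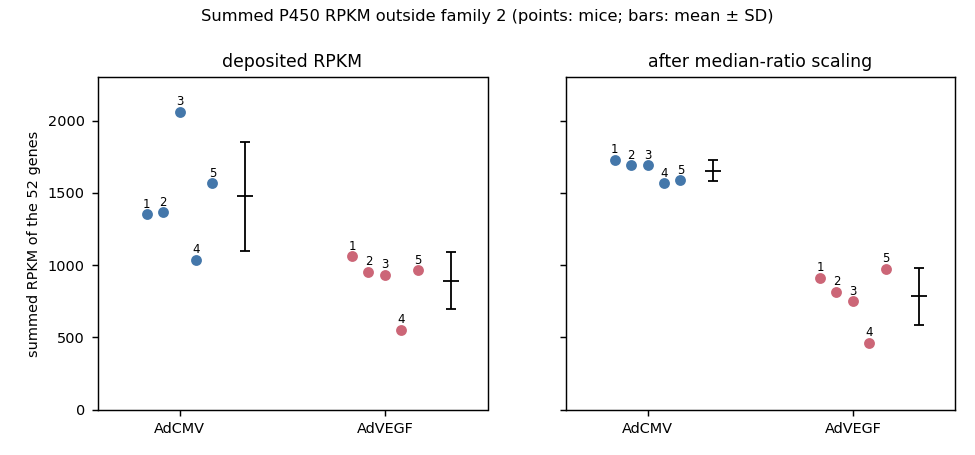
Summed RPKM of the 52 P450 genes per mouse, as deposited (left) and after median-ratio scaling (right), with mouse numbers above the points and bars for the mean ± SD of 5 mice. After scaling the AdCMV mice lie between 1568 and 1731 and the AdVEGF mice between 462 and 975, with AdVEGF mouse 4 the lowest in both panels.

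The Cyp3a genes encode the main drug- and steroid-oxidising enzymes of the liver, and all 9 of them were expressed. One was called lower on the deposited values, Cyp3a44, and 6 after median-ratio scaling (Cyp3a11, Cyp3a16, Cyp3a25, Cyp3a41a, Cyp3a44 and Cyp3a59). Cyp3a11, the most abundant P450 gene of the set, measured 472, 567, 949, 333 and 507 RPKM in AdCMV mice 1 to 5. In AdVEGF mice 1 to 5 it measured 381, 340.0, 326, 134 and 324 RPKM. AdVEGF mice 1 and 2 lay above AdCMV mouse 4, all other AdVEGF values lay below every AdCMV value, and AdVEGF mouse 4 was far below its group. The log2 fold change was -0.91 (standard error 0.31, adjusted p = 0.0399), which missed the fold limit, and after median-ratio scaling it was -1.31 (adjusted p = 0.00515). Without AdVEGF mouse 4 these became -0.64 (adjusted p = 0.0879) and -1.02 (adjusted p = 0.00173). On the deposited values the gene was called lower without AdCMV mouse 4, at -1.08 (adjusted p = 0.0265), or without AdVEGF mouse 1, at -1.02 (adjusted p = 0.0381).

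Cyp3a44, a Cyp3a gene that is stronger in females, gave 19.1, 21.4, 58.1, 22.0 and 39.2 RPKM in the AdCMV mice and 17.0, 16.3, 18.4, 3.60 and 16.5 RPKM in the AdVEGF mice. No AdVEGF value reached the lowest AdCMV value, although AdVEGF mouse 1 to mouse 3 lay close to it. Its log2 fold change was -1.21 (standard error 0.40, adjusted p = 0.0389), and the call was lost without AdVEGF mouse 4, at -0.76 (adjusted p = 0.0683), without AdCMV mouse 3, at -0.96 (adjusted p = 0.0718), AdCMV mouse 4, at -1.31 (adjusted p = 0.0572), or AdCMV mouse 5, at -1.10 (adjusted p = 0.0744), as well as with treat and without the filter. Cyp3a59 was also separated, with 22.2 to 49.8 RPKM against 8.13 to 21.2 RPKM, and its log2 fold change of -0.95 (standard error 0.27, adjusted p = 0.0185) stayed just short of the fold limit. It passed after median-ratio scaling, at -1.34 (adjusted p = 0.00154), and when AdCMV mouse 1, 2 or 4 or AdVEGF mouse 3 or 5 was left out, at -1.077 to -1.004. Cyp3a25, the second most abundant Cyp3a gene, had 95.2 ± 23.4 RPKM (SD, n = 5) in AdCMV mice and 56.4 ± 13.6 RPKM (SD, n = 5) in AdVEGF mice. Its log2 fold change was -0.76 (standard error 0.22, adjusted p = 0.0214), and -1.15 (adjusted p = 0.000844) after median-ratio scaling. Without AdVEGF mouse 4 the scaled value was -0.996 (adjusted p = 0.000762), just short of the fold limit and not called.

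Cyp3a41a ranged over 14.7 to 59.5 RPKM in AdCMV mice and 3.48 to 28.0 RPKM in AdVEGF mice, and Cyp3a16, which is best known from the fetal liver, over 7.85 to 35.9 and 2.72 to 10.8 RPKM. Both overlapped between the groups, and they were not called on the deposited values of all mice but were after median-ratio scaling, at -1.42 (adjusted p = 0.0492) and -1.26 (adjusted p = 0.0353). Without AdVEGF mouse 4 the scaled log2 fold changes were -0.94 (adjusted p = 0.0452) and -0.87 (adjusted p = 0.0304), short of the fold limit. Upper quartile scaling called Cyp3a16 but not Cyp3a41a, which was also called lower on the deposited values without AdVEGF mouse 5, at -1.30 (adjusted p = 0.0487), and with the replicate number as a block, at -1.03 (adjusted p = 0.00298). Cyp3a13 was called on neither scale. It measured 24.1, 22.6, 28.1, 19.6 and 26.4 RPKM in AdCMV mice and 21.3, 21.6, 27.0, 57.8 and 27.0 RPKM in AdVEGF mice, with a log2 fold change of 0.26 (standard error 0.25, adjusted p = 0.454) that turned to -0.14 (adjusted p = 0.722) after scaling. It lies outside the Cyp3a cluster, at chr5:138334161-138362847 of mm9, the build named in the submitters' processing notes, while the other 8 lie between 146106139 and 146924859 on the same chromosome.

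How reads that match several transcripts were counted is not given in the sources used here, so that the values of near-identical genes are uncertain. Cyp3a41a and Cyp3a41b transcripts (GENCODE, GRCm38) are 99.9% identical, and the Cyp3a41b value was 0.470 to 0.493 of the Cyp3a41a value in all 10 mice. Cyp3a41b fell on the other side of the threshold after median-ratio scaling, at -1.40 (adjusted p = 0.0513), and the pair is best read as 1 measurement. In the Cyp3a cluster, 23.8% (Cyp3a57) to 99.9% (Cyp3a41a) of the 30-base windows of a transcript also stood in another P450 gene of the set. The calls of the cluster may thus not be separate measurements.

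The promoters of the cluster are shown because 6 of its 8 genes were called lower after scaling, against 1 on the deposited values. Of the 6, only Cyp3a11, Cyp3a44 and Cyp3a59 were also called after scaling without AdVEGF mouse 4. RefSeq promoters (GRCm38.p6) were found for 35 of the 52 genes. The 9 letters CAAAGTCCA, a sequence bound by the hepatocyte factor HNF4, were searched on both strands in the 250 bases before each start and stood in 0.384% of the 32851 promoters of the genome. They stood in 5 of the 35: Cyp3a11, Cyp3a16, Cyp3a41a, Cyp3a41b and Cyp8b1. Each line below gives 150 bases before the start of the gene, 5′ to 3′ on the strand of the gene, with these letters in capitals, or the letters at the same place in Cyp3a44. Cyp3a44 differs there by C7A, counted from 1 at the 5′ end of the motif. Cyp3a25 is shown as a member of the cluster without the letters, and Cyp8b1 as the member outside it that has them. The positions in GRCm38.p6, all on the minus strand, are chr5:145879855-145880004, chr5:145720137-145720286, chr5:145805875-145806024, chr5:146009619-146009768 and chr9:121916306-121916455 in this order.
Cyp3a11: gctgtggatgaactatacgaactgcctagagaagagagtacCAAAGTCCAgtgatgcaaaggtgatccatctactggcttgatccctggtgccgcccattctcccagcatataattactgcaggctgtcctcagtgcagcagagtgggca
Cyp3a41a: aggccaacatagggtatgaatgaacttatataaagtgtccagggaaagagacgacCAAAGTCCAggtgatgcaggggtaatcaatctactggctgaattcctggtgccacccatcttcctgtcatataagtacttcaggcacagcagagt
Cyp3a44: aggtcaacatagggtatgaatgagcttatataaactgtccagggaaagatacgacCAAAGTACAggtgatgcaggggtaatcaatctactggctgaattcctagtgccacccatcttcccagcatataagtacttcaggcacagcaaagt
Cyp3a25: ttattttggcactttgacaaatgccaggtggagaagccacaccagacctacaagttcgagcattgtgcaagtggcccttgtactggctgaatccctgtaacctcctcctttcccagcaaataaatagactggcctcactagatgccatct
Cyp8b1: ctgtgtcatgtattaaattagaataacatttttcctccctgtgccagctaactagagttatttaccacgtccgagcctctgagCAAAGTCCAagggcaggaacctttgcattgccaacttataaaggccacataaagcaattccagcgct
Over these 150 bases, Cyp3a41a was 99.33% identical to Cyp3a41b, 93.33% to Cyp3a44 and 72% to Cyp3a11, while Cyp3a25 was 94% identical to Cyp3a59 and 60.67% to Cyp3a11. The letters were thus shared by some of the Cyp3a genes called after scaling and lacking in others of them, Cyp3a25 and Cyp3a59 among them. In the same windows, 11 of the 35 held the TATA box letters TATAAA (12.4% of all promoters), 8 held AGGTCA, a recognition sequence of nuclear receptors (14% of all), and 8 held GCGTG, the core of sites for the aryl hydrocarbon receptor (28.2% of all), with none of these motifs contained in another. For all 4 motifs, a P450 gene counted if any of its promoters matched, whereas the shares of all promoters count each promoter singly. The 2 kinds of share are thus not on equal terms. A match of letters is a description of the sequence only.

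The Cyp4a enzymes hydroxylate the end of fatty acid chains, and Cyp4a10 and Cyp4a14 are textbook targets of PPAR-alpha. Of the 8 genes, 6 were tested, and Cyp4a12a, Cyp4a12b and Cyp4a10 were called lower both on deposited values and after median-ratio scaling. The 8 genes summed to 107 to 219 RPKM in AdCMV mice and 49.9 to 85.8 RPKM in AdVEGF mice, without overlap. Cyp4a12a, the main male omega-hydroxylase, at chr4:114971651-115005420, measured 59.1, 48.6, 68.9, 41.8 and 57.0 RPKM in AdCMV mice 1 to 5. AdVEGF mice 1 to 5 had 22.1, 10.7, 1.85, 2.09 and 20.1 RPKM. The groups did not overlap, and within the AdVEGF group mouse 3 and mouse 4 were far below the other mice. The log2 fold change of -2.90 (standard error 0.56, adjusted p = 0.00107) was the lowest of the 36 genes, and the gene was the only one of them called when limma's treat tested against a log2 fold change of 1.

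Cyp4a12b gave 33.2, 22.1, 41.0, 26.1 and 35.3 RPKM in AdCMV mice and 15.4, 7.97, 1.35, 2.17 and 12.6 RPKM in AdVEGF mice, with a log2 fold change of -2.48 (standard error 0.51, adjusted p = 0.00191). It followed Cyp4a12a from mouse to mouse, and the transcripts are 98.25% identical. The ratio of Cyp4a12b to Cyp4a12a was 0.454 to 0.624 in AdCMV mice and 0.629 to 1.04 in AdVEGF mice, so that, unlike in the Cyp3a41 pair, it was not constant. Mup genes are likewise stronger in males, and the AdVEGF mice with the lowest Cyp4a12a, mouse 3 and mouse 4, also had the lowest Mup shares, 7.84% and 11.2% of reads, against 17.0% to 28.6% in the other AdVEGF mice. In the AdCMV group it was otherwise: mouse 3, with the highest Cyp4a12a, had the lowest Mup share (18.0%), and mouse 4, with the lowest Cyp4a12a, the highest (50.5%). Whether the Mup share has a part in the result was not tested. Of the male-biased P450 genes listed, Cyp4a12a, Cyp4a12b and Cyp7b1, 2 of 3 were called lower, and all 3 after scaling (2 without AdVEGF mouse 4). Of 6 listed female-biased genes (Cyp3a16, Cyp3a41a, Cyp3a41b, Cyp3a44, Cyp17a1 and Cyp39a1), 1 was called lower, Cyp3a44, and 3 after scaling (2, Cyp3a44 and Cyp17a1, without AdVEGF mouse 4).

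**Figure D3:**
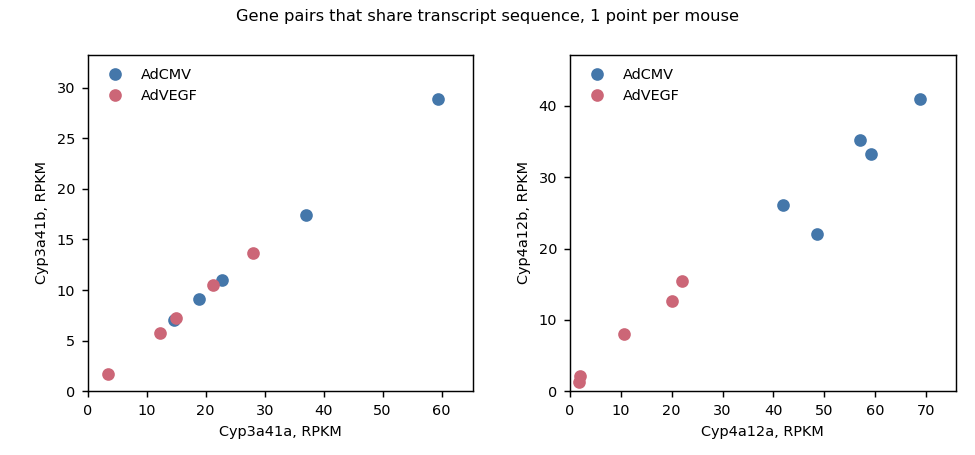
RPKM of Cyp3a41b against Cyp3a41a (left) and of Cyp4a12b against Cyp4a12a (right), 1 point per mouse on linear axes from 0. The Cyp3a41 points lie on a line through 0 with a slope between 0.470 and 0.493, and the AdVEGF points of the Cyp4a12 pair gather at the lower left.

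Cyp4a10 and Cyp4a14, the genes that PPAR-alpha induces, differed in their calls. For Cyp4a10 the values were 19.3, 14.1, 16.4, 34.0 and 42.7 RPKM in AdCMV mice and 7.56, 11.4, 19.9, 14.4 and 6.10 RPKM in AdVEGF mice. They overlapped, with AdVEGF mouse 3 above 3 AdCMV mice, and the log2 fold change was -1.08 (standard error 0.34, adjusted p = 0.0292). The call was lost in 4 of the fits that left out 1 mouse (AdCMV mouse 4, AdCMV mouse 5, AdVEGF mouse 1 or AdVEGF mouse 5), with voom on recovered reads, with treat and without the filter. Cyp4a14 ranged over 13.2 to 62.4 RPKM and 8.98 to 54.1 RPKM, with a log2 fold change of -0.65 (standard error 0.46, adjusted p = 0.309) and the highest AdVEGF value in mouse 3. Of 10 PPAR-alpha targets outside the P450 family, Vnn1 alone was called lower (-1.36 (standard error 0.18, adjusted p = 3.7e-05)), and Acaa1b as well after scaling, at -1.14 (adjusted p = 0.00689), but not without AdVEGF mouse 4, at -0.93 (adjusted p = 0.00735). Cyp4a31 and Cyp4a32 did not pass the test, with log2 fold changes of 0.60 and -0.83, and Cyp4a29 and Cyp4a30b had no read in any mouse.

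The Cyp4 cluster of chromosome 4 holds 11 of the 52 genes between 114781287 and 115320310 of mm9. Near its end lie the 2 genes of the cluster called higher, Cyp4b1-ps2 and Cyp4b1, with Cyp4a32 (log2 fold change -0.83, not called) between them. Cyp4b1, a fatty acid hydroxylase that is also known for activating toxins in lung and kidney, lies at chr4:115297333-115320310. It measured 3.35, 5.59, 4.99, 2.74 and 5.52 RPKM in AdCMV mice and 10.4, 11.7, 10.0, 17.1 and 9.20 RPKM in AdVEGF mice. Every AdVEGF value exceeded every AdCMV value, and mouse 4 was the highest of them. The log2 fold change was 1.40 (standard error 0.24, adjusted p = 0.000469) and 1.01 (adjusted p = 0.00199) after median-ratio scaling. Without mouse 4 the scaled value was 0.88 (adjusted p = 0.00315), which is short of the fold limit. The pseudogene Cyp4b1-ps2 had 0 to 2 reads in AdCMV mice and 2 to 4 reads in AdVEGF mice, so that its call rested on a few reads and its fitted fold depends on the value added before the logarithm. It was not called with a pseudocount of 1, or after median-ratio scaling without AdVEGF mouse 4 (adjusted p = 0.0666). Of the 30-base windows of its GENCODE transcript, 47.0% also stood in Cyp4b1. Whether its reads came from Cyp4b1 was not tested.

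Cyp4v3, which hydroxylates fatty acids and is the mouse counterpart of a gene mutated in a human retinal dystrophy, was the second most abundant gene of the set in AdCMV mice. It measured 146, 129, 140.4, 87.1 and 104 RPKM there and 80.1, 67.5, 44.1, 38.6 and 65.3 RPKM in AdVEGF mice. The highest AdVEGF value, in mouse 1, stayed below the lowest AdCMV value, in mouse 4. The log2 fold change was -1.06 (standard error 0.23, adjusted p = 0.00315), close to the fold limit. The call was lost without AdVEGF mouse 4, at -0.92 (adjusted p = 0.00792), AdVEGF mouse 3, at -0.97 (adjusted p = 0.0128), or AdCMV mouse 1, at -0.99 (adjusted p = 0.0129), and with treat and with voom on recovered reads. After median-ratio scaling it was -1.46 (adjusted p = 0.000836).

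Cyp4f enzymes inactivate leukotrienes and hydroxylate long fatty acids, and as a group they did not share the lower values of the Cyp4a genes. Of 10 genes, 6 were tested, 1 was called higher on deposited values and none was called after median-ratio scaling. Cyp4f16 had 1.03 to 3.01 RPKM in AdCMV mice and 2.88 to 4.47 RPKM in AdVEGF mice, with a log2 fold change of 1.06 (standard error 0.26, adjusted p = 0.00791) that became 0.68 (adjusted p = 0.00979) after scaling and 0.88 (adjusted p = 0.0184) without AdCMV mouse 4, where it was not called. Cyp4f14, the most abundant of them, had 47.1 ± 9.04 RPKM (SD, n = 5) in AdCMV mice and 47.3 ± 17.6 RPKM (SD, n = 5) in AdVEGF mice. AdVEGF mouse 4 alone, at 17.1 RPKM, lay below every AdCMV mouse. Its log2 fold change was -0.10 (standard error 0.30, adjusted p = 0.819), and 0.23 (adjusted p = 0.409) without that mouse.

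**Figure D4:**
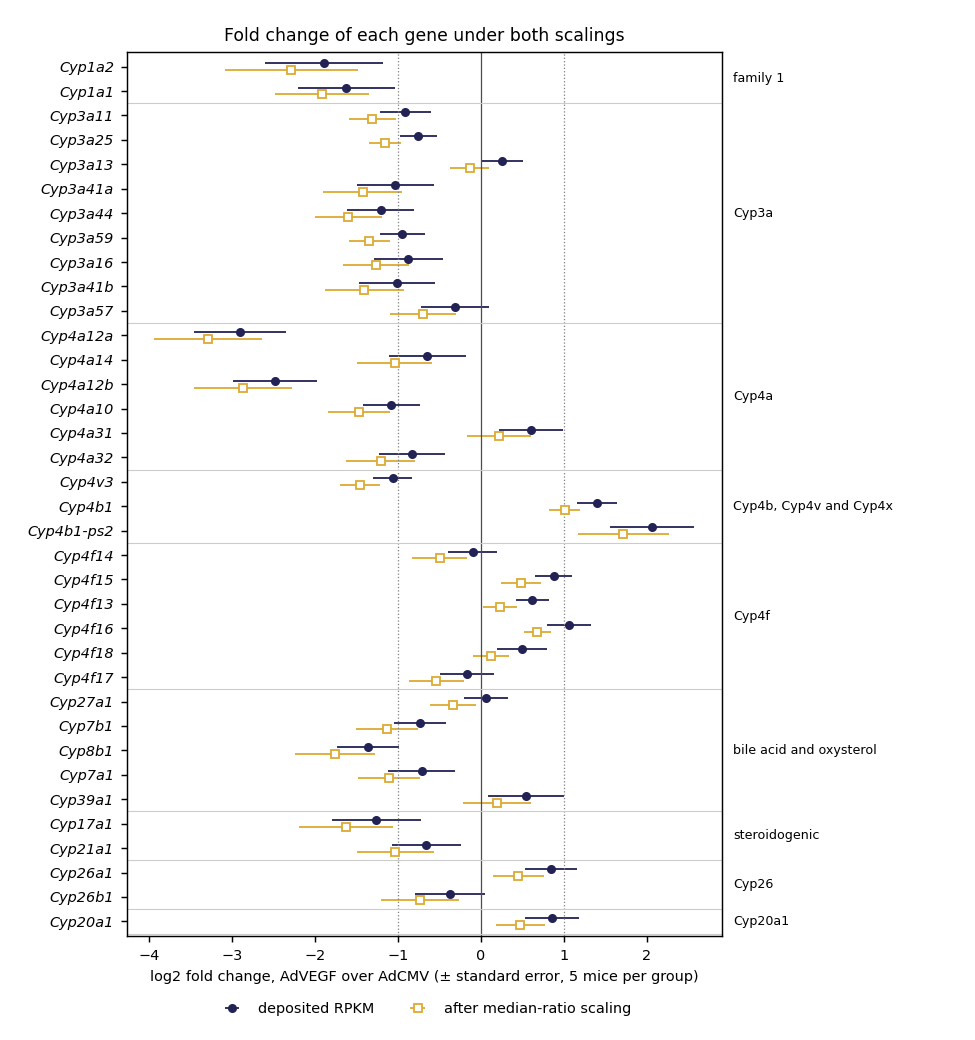
Log2 fold change of AdVEGF over AdCMV for the 36 tested genes with its standard error, on deposited RPKM (filled circles) and after median-ratio scaling (open squares), with dotted lines at -1 and 1. Scaling moves every gene to the left, the Cyp3a genes other than Cyp3a13 and Cyp3a57 then lie below -1, and all 6 Cyp4f genes then lie between -1 and 1.

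Family 1 holds the targets of the aryl hydrocarbon receptor. Cyp1a2, which oxidises caffeine and aromatic amines and is a classical gene of hepatocytes around the central vein, measured 71.0, 69.9, 119, 52.8 and 106 RPKM in AdCMV mice. AdVEGF mice 1 to 5 had 54.5, 42.0, 42.8, 1.37 and 32.6 RPKM. AdVEGF mouse 1 alone reached into the AdCMV range, above AdCMV mouse 4, and AdVEGF mouse 4 had only 21 reads. Its log2 fold change was -1.89 (standard error 0.71, adjusted p = 0.0602), which did not pass the test, whereas voom on recovered reads called it lower, at -1.86 (adjusted p = 0.0111), as did limma without AdVEGF mouse 1, at -2.22 (adjusted p = 0.0356). Without AdVEGF mouse 4 it was -0.92 (adjusted p = 0.0144), and with median-ratio scaling and without that mouse -1.30 (adjusted p = 5.1e-05), which passed. Cyp1a1 was low throughout, at 0.690 to 2.62 RPKM in AdCMV mice and 0 to 1.36 RPKM in AdVEGF mice, and it passed the test after scaling, at -1.92 (adjusted p = 0.0287), but not before, at -1.62 (standard error 0.58, adjusted p = 0.0517). On the deposited values without AdVEGF mouse 1 or mouse 5 it was called lower, at -2.04 (adjusted p = 0.0153) and -1.81 (adjusted p = 0.0438), and voom called it at -2.06 (adjusted p = 0.0177). Without AdVEGF mouse 4, which had no Cyp1a1 read, the limma value fell to -1.07 (adjusted p = 0.110). After median-ratio scaling it was then -1.40 (adjusted p = 0.0305), which was called. Cyp1b1 stayed under the filter, at most 0.271 RPKM in AdCMV mice and 0.382 RPKM in AdVEGF mice. None of 3 further targets of the receptor was called by limma or voom, although 2 were lower at an unadjusted p under 0.05, and Nqo1 was called lower after scaling.

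Most markers of pericentral hepatocytes that are not P450 genes moved in the same direction. Of 8 such genes, 6 were called lower on both scales (Glul, Oat, Axin2, Slc1a2, Rhbg and Tbx3). Over all genes tested, 1.54% were called lower on the deposited values and 3.09% after median-ratio scaling. Gulo and Lgr5 were not called, with deposited log2 fold changes of -0.31 (adjusted p = 0.375) and 0.22 (adjusted p = 0.554) in limma. The summed RPKM of the 8 genes was 331 to 459.9 in AdCMV mice and 104 to 188 in AdVEGF mice. Glul, the glutamine synthetase of the innermost hepatocyte layer, had 226, 238, 243, 174 and 242 RPKM in AdCMV mice and 63.8, 53.3, 50.1, 51.9 and 27.1 RPKM in AdVEGF mice, with a log2 fold change of -2.23 (standard error 0.23, adjusted p = 1.9e-06). Within the AdVEGF group, mouse 4 was the lowest for 3 of the 8 markers (Rhbg, Slc1a2 and Gulo, at 0.518, 0.884 and 23.8 RPKM) and the highest for Oat and Lgr5, at 84.0 and 10.6 RPKM. Of 8 periportal markers, 0 were called in either direction by limma or voom, with 4 higher at an unadjusted p under 0.05 on the deposited values. The part of these changes in the P450 results was not tested.

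Bile acid synthesis starts with Cyp7a1, the rate-limiting 7-alpha-hydroxylase of the classical route, or with Cyp27a1 and Cyp7b1 of the alternative route, and Cyp8b1 sets the share of cholic acid. Of the 6 genes of bile acids and oxysterols, 5 were tested and Cyp8b1 was called lower; Cyp7a1 and Cyp7b1 were called as well after median-ratio scaling. Cyp8b1, at chr9:121823474-121825423, measured 71.1, 60.1, 27.1, 60.1 and 68.9 RPKM in AdCMV mice. AdVEGF mice 1 to 5 measured 28.4, 11.1, 10.0, 36.6 and 36.5 RPKM. AdCMV mouse 3 was low and fell among the AdVEGF values, whereas the other AdCMV mice lay above all of them. The log2 fold change was -1.36 (standard error 0.37, adjusted p = 0.0138), and the call held in each fit that left out 1 mouse. The ratio of Cyp8b1 to Cyp27a1 within a mouse ran from 0.395 to 1.16 in AdCMV mice and from 0.115 to 1.09 in AdVEGF mice.

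Cyp7a1 had 6.67, 4.15, 14.8, 7.64 and 16.3 RPKM in AdCMV mice and 10.9, 7.05, 4.38, 5.61 and 2.18 RPKM in AdVEGF mice. The groups overlapped over most of their range, with a log2 fold change of -0.71 (standard error 0.40, adjusted p = 0.193) that became -1.10 (adjusted p = 0.0491) after scaling, just past the threshold. It was not called with upper quartile scaling (adjusted p = 0.0566) or after median-ratio scaling without AdVEGF mouse 4, at -1.11 (adjusted p = 0.0704). Cyp7b1 had 74.6, 67.9, 54.6, 62.1 and 52.9 RPKM and 48.3, 74.2, 31.1, 15.6 and 40.7 RPKM. AdVEGF mouse 2 was close to the highest AdCMV mouse, the other AdVEGF mice were below all AdCMV mice, and the log2 fold change was -0.73 (standard error 0.31, adjusted p = 0.0910). After scaling it was -1.13 (adjusted p = 0.0460), and -0.80 (adjusted p = 0.0675) without AdVEGF mouse 4. Cyp27a1, the mitochondrial sterol 27-hydroxylase, did not follow, with 69.1 ± 12.2 RPKM (SD, n = 5) in AdCMV mice, 75.6 ± 24.4 RPKM (SD, n = 5) in AdVEGF mice and a difference on the log2 scale of 0.06 (standard error 0.26, adjusted p = 0.875) whose sign turned after scaling, to -0.33 (adjusted p = 0.418). AdVEGF mouse 4 was its low value, at 33.6 RPKM, and the other 4 AdVEGF mice had 78.4 to 96.5 RPKM. Cyp39a1, an oxysterol 7-alpha-hydroxylase, had a log2 fold change of 0.54 (standard error 0.46, adjusted p = 0.388). None of the 10 bile acid enzymes outside the P450 family was called by limma or voom (1 higher and 2 lower at an unadjusted p under 0.05), and Akr1d1 was called lower after scaling, at -1.05 (adjusted p = 0.000140).

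Most steroid hormone P450 genes were near or at 0. The 6 genes of the group summed to 2.43 to 7.51 RPKM in AdCMV mice and 0.901 to 9.75 RPKM in AdVEGF mice, and 2 passed the filter. Another 6 adrenal and gonadal markers that are not P450 genes, of which 1 passed the filter, summed to 0.349 to 1.34 RPKM in AdCMV mice and 0.705 to 1.42 RPKM in AdVEGF mice. Cyp11b1 and Cyp11b2 had no read in any mouse, and Cyp11a1 and Cyp19a1 had at most 2 reads in any mouse. The exceptions were Cyp17a1, the 17-alpha-hydroxylase, and Cyp21a1, the 21-hydroxylase. Cyp17a1 measured 3.17, 2.31, 5.06, 2.14 and 1.52 RPKM in AdCMV mice and 0.583, 0.294, 1.07, 5.84 and 0.893 RPKM in AdVEGF mice. Of the AdVEGF mice, 4 lay below every AdCMV mouse, and mouse 4 lay above every AdCMV mouse. The log2 fold change was -1.26 (standard error 0.54, adjusted p = 0.0945), and -1.86 (adjusted p = 0.00209) without AdVEGF mouse 4, where the gene was called lower. Cyp21a1 had 2.82, 2.25, 2.32, 2.33 and 0.909 RPKM in AdCMV mice and 1.12, 0.493, 1.22, 3.86 and 1.01 RPKM in AdVEGF mice. Mouse 4 was again the highest, the other AdVEGF mice lay below all AdCMV mice except mouse 5, and the log2 fold change was -0.66 (standard error 0.42, adjusted p = 0.252), or -1.05 (adjusted p = 0.0450) without that mouse.

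With all mice, the retinoic acid hydroxylases were not called by limma or voom, with 1 of 2 higher at an unadjusted p under 0.05. Cyp26a1, which retinoic acid itself induces in the liver, measured 6.62, 7.70, 5.44, 3.47 and 6.76 RPKM in AdCMV mice and 12.9, 15.5, 7.16, 17.2 and 5.12 RPKM in AdVEGF mice. Of the 5 AdVEGF values, 3 exceeded all AdCMV values, and the log2 fold change was 0.84 (standard error 0.32, adjusted p = 0.0607). Without AdVEGF mouse 5, its lowest value, the gene was called higher, at 1.099 (adjusted p = 0.0120). Cyp26b1 had 0.616 to 1.89 RPKM and 0.312 to 2.46 RPKM, with AdVEGF mouse 4 the highest, and its log2 fold change was -0.37 (standard error 0.42, adjusted p = 0.532). Some other retinoid genes did pass the test. Lrat, which esterifies retinol in stellate cells, was called higher, at 1.51 (standard error 0.30, adjusted p = 0.00135), and the retinaldehyde dehydrogenase gene Aldh1a1 and its relative Aldh1a7 were called lower, at -1.33 (standard error 0.21, adjusted p = 0.000150) and -1.03 (standard error 0.27, adjusted p = 0.0110). All 3 were also called after median-ratio scaling. Lrat is also a marker of stellate cells, and 5 of 8 stellate cell markers were called higher.

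Of the remaining genes, Cyp20a1, whose substrate is unknown, had a log2 fold change of 0.86 (standard error 0.32, adjusted p = 0.0618), or 1.03 (adjusted p = 0.0355) without AdVEGF mouse 4, where it was called higher, as it was without AdCMV mouse 5 and by voom. The vitamin D genes Cyp24a1 and Cyp27b1 had at most 1 read in any mouse, and Cyp4x1 had none. Below the filter, Cyp26c1 had at most 5 reads, Cyp46a1 at most 8, Cyp1b1 at most 11, Cyp4f41-ps at most 4, and Cyp4f37, Cyp4f39 and Cyp4f40 at most 16 in any mouse. At 3 reads, a transcript of 2 kb would have had 0.111 to 0.268 RPKM in these libraries, which covers counting error only. Without the filter, 47 of the 52 genes were tested, and the 3 higher and 4 lower calls were all of genes that also passed the filter.

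The partners of the P450 enzymes were not called. None of the 7 electron donor genes passed in limma or voom, and 0 had an unadjusted p under 0.05 on the deposited values (3, all lower, after scaling). Among them was Por, P450 oxidoreductase, with 16.1 to 59.5 RPKM in AdCMV mice and 20.8 to 44.6 RPKM in AdVEGF mice (log2 fold change 0.17). Of 13 nuclear receptor and regulator genes tested, 1 was called higher, the retinoic acid receptor gene Rarb, at 1.11 (standard error 0.26, adjusted p = 0.00519). After scaling limma called 0, with 1 higher and 4 lower at an unadjusted p under 0.05, and without AdVEGF mouse 4 as well it called Nr0b2 lower, at -1.03 (adjusted p = 0.0216). Receptor genes that control the families above had small changes on the deposited values: the log2 fold change was -0.12 for Nr1i3 (CAR), 0.39 for Nr1i2 (PXR), -0.31 for Ppara, 0.22 for Nr1h4 (FXR) and -0.15 for Ahr. These genes were not called, and their adjusted p in limma ranged from 0.149 to 0.762. After median-ratio scaling the values were -0.51, 0.0011, -0.70, -0.18 and -0.54 in this order. The limma adjusted p was then under 0.05 for Ppara (0.00226) and Ahr (0.0417), but neither passed the fold limit. In family 2, 38 of 50 genes were tested, 0 were called higher and 6 lower, with a median of -0.21 on the log2 scale. After median-ratio scaling 10 were called lower. At an unadjusted p under 0.05, 6 were higher, and voom called 0 higher. Both sets thus had 6 lower calls among a similar number of genes, and the difference between them was not tested.

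AdVEGF mouse 4 differed from the other AdVEGF mice in its P450 profile. It was the lowest of its group for 18 of the 36 genes, where it was lowest for 22.8% of all genes tested, and the highest for 8, where it was highest for 29.1% of all genes. Against the median of the other 4 AdVEGF mice, 15 of the 36 genes were under 0.5 times and 5 over 2 times, where 6.92% and 3.44% of the 13873 genes with a median above 0 were. The low genes were Cyp1a1, Cyp1a2, both Cyp4a12 genes, Cyp27a1, Cyp7b1, Cyp4f14, Cyp4f17 and the Cyp3a genes other than Cyp3a13 and Cyp3a25, and the high genes were Cyp17a1, Cyp21a1, Cyp26b1, Cyp3a13 and Cyp4a14. The ratio ran from 0.0323 for Cyp1a2 to 7.92 for Cyp17a1, leaving out Cyp1a1, which had no read in that mouse. Nr1i3 and Nr0b2, regulators of P450 genes, were also highest in this mouse within the AdVEGF group, at 30.6 and 43.0 RPKM against up to 15.7 and 28.7 RPKM in the others. Of the other regulators, Nr1i2, Nr1h4, Nr1h3, Rara, Rxra and Ppara were highest in it too, at up to 1.34 times the median of the others. Nr5a2 and Arnt were lowest in it. Hnf4a was 48.0 RPKM against 48.1 to 60.4 RPKM, and albumin (Alb) and Tat were within the range of the group. Among the other hepatocyte markers, Serpina1a, Serpina1c, Apob, Ttr and Apoa1 were lowest in this mouse. Trf and Fgb were highest in it, at 7188 and 2587 RPKM against up to 4065 and 1512 RPKM in the others. Without this mouse, 4 of 37 genes tested were called higher and 6 lower (12.7% and 1.31% of all genes). The 6 were Cyp4a12a, Cyp4a12b, Cyp4a10, Cyp8b1, Cyp17a1 and Cyp21a1, so that 4 of the 6 original calls were kept. With median-ratio scaling and without this mouse, 0 were called higher (7.82% of all genes, 4 P450 genes at an unadjusted p under 0.05) and 12 lower (2.85% of all genes), among them Cyp1a2, Cyp17a1 and Cyp21a1.

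**Figure D5:**
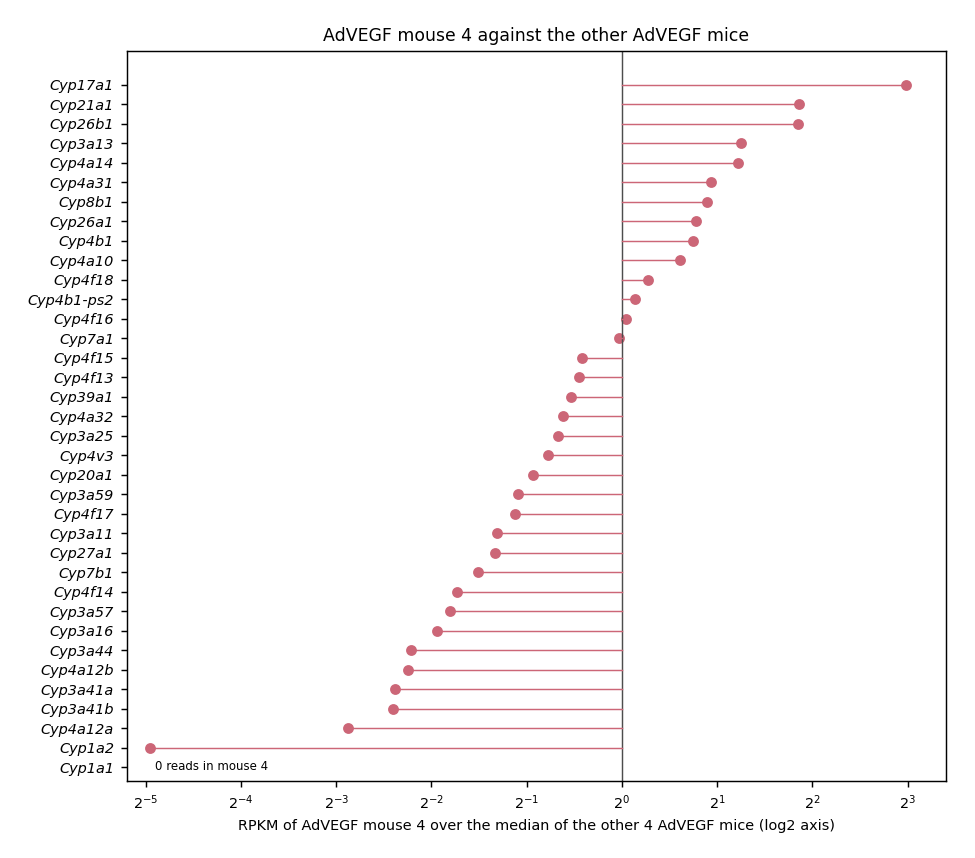
RPKM of AdVEGF mouse 4 divided by the median of the other 4 AdVEGF mice for the 36 tested genes, on a log2 axis with a line at equality. Points left of the line are genes that were lower in mouse 4, with Cyp1a2 at 0.0323, and points right of it were higher, with Cyp17a1 at 7.92.

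Markers of several other cell types of the liver differed between the groups. The summed RPKM of 10 endothelial markers was 38.6 to 74.6 in AdCMV mice and 312 to 393 in AdVEGF mice, with all 10 called higher, and 3 of 8 Kupffer cell markers were called higher (2 after median-ratio scaling). T and NK cell markers summed to 8.87 to 32.9 RPKM in AdCMV mice and 4.67 to 13.2 RPKM in AdVEGF mice, with 5 of 7 called lower (6 after scaling). Of 4 cholangiocyte markers, Spp1 was called higher. The 10 general hepatocyte markers summed to 24696 to 30163 RPKM in AdCMV mice and 40454 to 52023 RPKM in AdVEGF mice, with 3 called higher (0 after median-ratio scaling) and 0 lower on either scale. The part of other cell types in the P450 results was not tested.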

How the data were processed

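Total RNA of 10 mouse livers, 5 per group, was depleted of ribosomal RNA and sequenced. Per the labels and methods, the authors mapped reads with TopHat to mm9, counted them with HOMER and deposited RPKM values for 24016 transcripts. They also deposited a log fold change and FDR of their own comparison, which were not used. How reads shared by several transcripts were counted and whether strand was used are not given in the sources used here. Reads behind the RPKM values, and with them the mapped tags per library, were recovered from the steps of the values (at least 99.99% whole within 0.05 reads in each library). The 5 unnamed rows, at most 0.00534% of reads, were left out.

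Testing covered genes averaging more than 0.5 RPKM in either group, using limma 3.58.1 (R 4.3.3; lmFit, eBayes with trend) on log2(RPKM + 0.1), with Benjamini-Hochberg adjustment over all 13933 genes. The thresholds follow the methods, and the test used for them is not given in the sources used here. Scripts were tested on simulated data. As alternatives, the values were rescaled (median-ratio, upper quartile) and fitted with treat, with voom on recovered reads (2302 higher, 191 lower), with no filter, a filter of 1 RPKM, pseudocounts of 1 and 0.01, 1 row per symbol, a replicate block and leaving out each mouse. Replicate numbers were not taken as pairs, since the deviations of same-numbered mice correlated at 0.00763 to 0.291 across genes. The genes described singly were those called before or after median-ratio scaling, the 10 most abundant and 18 of known role; other genes named were chosen after their values were seen. The P450 genes and lists were chosen with earlier results of these data known. Promoters were RefSeq (GRCm38.p6) and transcripts GENCODE. These were not mixed with the mm9 positions of the table. Python 3.11.15 was used for tables.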

Additional observations from a re-analysis of the deposited data

Results flagged for a closer look

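Within groups of 5 mice, the highest or lowest value of a tested P450 gene stood apart from the others in 10 of 72 gene and group combinations (gap over range above 0.71, Dixon's test, which chance passes in about 1 of 20 groups). AdVEGF mouse 4 accounted for 7 of the 10. It was the lowest of its group for Cyp3a11 (134.101 RPKM, next value 323.55), Cyp3a16 (2.724 RPKM, next 9.55), Cyp3a44 (3.599 RPKM, next 16.32) and Cyp27a1 (33.631 RPKM, next 78.389), and the highest for Cyp3a13 (57.833 RPKM, next 27.045), Cyp17a1 (5.842 RPKM, next 1.073) and Cyp21a1 (3.86 RPKM, next 1.216). In the AdCMV group, mouse 3 was the highest for Cyp3a57 (17.002 RPKM, next 5.182) and the lowest for Cyp8b1 (27.05 RPKM, next 60.081), and mouse 5 was the highest for Cyp4a32 (13.35 RPKM, next 4.189). What sets these mice apart was not tested.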

How the results depend on the processing

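Cyp4a12a was called lower under all alternatives run, and Cyp4a12b and Cyp8b1 under all but treat. Upper quartile scaling called 1125 genes higher and 393 lower, with 11 P450 genes lower and a median log2 fold change of -1.03 over the P450 genes, and median-ratio scaling gave 1088, 431, 14 and -1.07. The share of higher calls over all genes was therefore smaller with scaling than on the deposited values, 1808 higher and 214 lower. Treat called 503 genes higher and 36 lower, with 0 P450 genes higher (1 at an unadjusted p under 0.05) and 1 lower. Without the filter the median of the P450 genes was -0.31. With a pseudocount of 1, 954 genes and 1 P450 gene were higher. Median-ratio scaling without AdVEGF mouse 4, chosen after seeing the data, called 1090 genes higher and 397 lower, with 0 P450 genes higher (4 at an unadjusted p under 0.05; limma) and 12 lower. Leaving out 1 mouse gave 2 to 5 P450 genes higher, 4 to 8 lower and a median of -0.74 to -0.45, with 1425 to 2357 of all genes higher and 178 to 225 lower. The 5 higher and 4 lower were reached without AdCMV mouse 5, where Cyp20a1 and Cyp4f15 were called and Cyp3a44 and Cyp4a10 were not. With the replicate number as a block, 11 P450 genes were lower. The numbers mark no shared animal, and 3 of the 5 AdCMV mice correlated best with the AdVEGF mouse of their own number. Cyp27a1 changed sign to -0.33 with median-ratio scaling, -0.30 with upper quartile scaling, -0.039 without AdCMV mouse 4, -0.048 without AdVEGF mouse 1, -0.0093 without AdVEGF mouse 3 (0.33 at the other end, without AdVEGF mouse 4) and -0.051 with median-ratio scaling without AdVEGF mouse 4. Cyp3a13 changed to -0.14, -0.099 and -0.38 under both scalings and the last setting, and Cyp4f14 to 0.23 without AdVEGF mouse 4 (-0.21 without AdVEGF mouse 1). None of these 3 genes was called. The causes were not tested.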
